A study of Mus musculus with 13 samples.

Results

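The genes described here are 51 genes of DNA replication and mitosis, 24 of them acting in S phase and 27 in G2 and mitosis, measured in sorted mouse splenic CD4 T cells. They were chosen by gene symbol, and all 51 were among the 18649 genes of the deposited table and among the 14177 tested. PD1hi cells (3 libraries) were CD4+ with a high level of PD-1 on the surface and no GFP signal from the Foxp3 reporter. Regulatory T cells (Treg, 5 libraries) were CD4+, carried the reporter and lacked surface PD-1, and conventional T cells (Tconv, 5 libraries) were CD4+ and negative for both. All 3 populations were sorted in each of experiments 3, 5 and 6, and 4 further libraries carry the word replicate in their titles, beside a library that shares their experiment and population. The sources used here do not give the strain, age or number of animals, the construct behind the reporter or what a replicate library shares with its pair. The p-values thus rest on a spread between samples that may be partly technical.

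A cell that divides copies its DNA in S phase and parts the copies in mitosis. Genes for replication are switched on at the entry to S phase by E2F factors, whereas most genes for mitosis are switched on later, in G2, through CHR elements and CCAAT boxes in their promoters. Most naive CD4 T cells of the spleen rest outside the cycle, and activated and regulatory T cells hold more dividing cells. The question put to these genes was how PD1hi cells, Treg and Tconv differ in each of the 2 groups of genes.

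The unit is the scaled count, a number of reads divided by a size factor of the library, averaged over libraries of one experiment and population to give 3 values per population (n = 3), listed in the order of experiments 3, 5 and 6. Libraries held 15971126 to 24216463 reads in genes, and single members had 11 to 6744 reads per library. Fold changes are log2 values with their standard error (SE) on log2(scaled count + 1), and the test was limma with Benjamini-Hochberg adjustment over all 14177 genes and a threshold of 0.05. Among the genes behind the sort, Pdcd1, which encodes PD-1, had 39713, 33610 and 38792 scaled counts in PD1hi cells, 1990, 1914 and 1962 in Treg and 1075, 1287 and 1033 in Tconv. Foxp3 had 121, 67.7 and 129 in PD1hi cells, 15895, 15373 and 16400 in Treg and 291, 256 and 328 in Tconv. Cd3e, a chain of the T cell receptor complex, stood between 23085 and 31273 in all 9 values. Trat1 and Cd4 varied more. Trat1 was at 490 to 656 in PD1hi, 2464 to 2756 in Treg and 2858 to 4142 in Tconv. Cd4 was at 36011 to 47261, 15149 to 19031 and 26238 to 29396. Of the 6 CD4 T cell markers tested, 2 were higher and 1 lower in PD1hi than in Tconv. In PD1hi against Treg 3 were higher and 1 lower, and in Treg against Tconv 0 were higher and 2 lower (limma, adjusted p under 0.05). Reads of libraries titled replicate differed from their pair with a chi-square per degree of freedom of 7.768 to 73.5, where sampling noise alone gives 1. The highest was in the Treg pair of experiment 3, and the other pairs gave 7.768 to 9.047. Libraries of one population from different experiments gave 15.43 to 92.73. Against Treg of other experiments, the second Treg library of experiment 3 gave 72.33 to 92.73 and the first gave 16.48 to 30.29.

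Most mitosis genes were higher in both PD1hi cells and Treg than in Tconv, while replication genes split into those that rose with them and a set not past the test. Against Tconv, 40 of the 51 genes rose in PD1hi cells and 0 fell, against 14.2% of all tested genes called higher and 11.9% called lower. The 40 were 25 of the 27 mitosis genes and 15 of the 24 replication genes. The median log2 fold change was 1.91 over the mitosis genes and 1.02 over the replication genes, and it lay near 0 over all tested genes. In Treg against Tconv 29 of the 51 rose, 22 mitosis and 7 replication genes, and 0 fell, against 8.73% of all tested genes called higher and 5.66% called lower. The medians there were 1.41 for mitosis and 0.44 for replication genes. In PD1hi cells against Treg 5 of the 51 rose and 0 fell, against 8.16% called higher and 8.39% called lower over all tested genes. At an unadjusted limma p under 0.05, 0 of the 51 were lower in PD1hi against Tconv and 0 in PD1hi against Treg. In Treg against Tconv 2 were lower, Mcm2 and E2f1. Over all 14177 tested genes 2500, 2008 and 1583 were lower in these comparisons. Higher at that p were 41, 18 and 35 of the 51, against 2719, 1926 and 1971 of all tested genes. A bulk sample cannot tell more dividing cells apart from more of these transcripts per cell.

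The values themselves showed the same split. All 3 PD1hi values lay above all 3 Tconv values for 42 genes (26 mitosis, 16 replication), against 20.5% of all tested genes. All 3 Treg values lay above all 3 Tconv values for 33 genes (23 mitosis, 10 replication), against 17.9% of all tested genes. All 3 PD1hi values lay above all 3 Treg values for 17 genes (9 mitosis, 8 replication), against 15.2%. The group means stood in the order PD1hi, Treg, Tconv for 41 of the 51 genes (25 mitosis, 16 replication), against 23.5% of all tested genes. Within experiments, PD1hi was above Tconv in all 3 for 26 of 27 mitosis and 17 of 24 replication genes. Treg was above Tconv in all 3 experiments for 26 mitosis and 13 replication genes. How many of all tested genes were above Tconv in all 3 experiments was not counted, so these counts have no share beside them. When libraries were scaled to equal totals in place of the size factors, the median of all genes in PD1hi against Tconv moved by 0.142. The calls there split into 2450 higher and 1298 lower (65.4% higher), against 2012 and 1688 (54.4% higher), and 42 of the 51 rose.

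**Figure D1:**
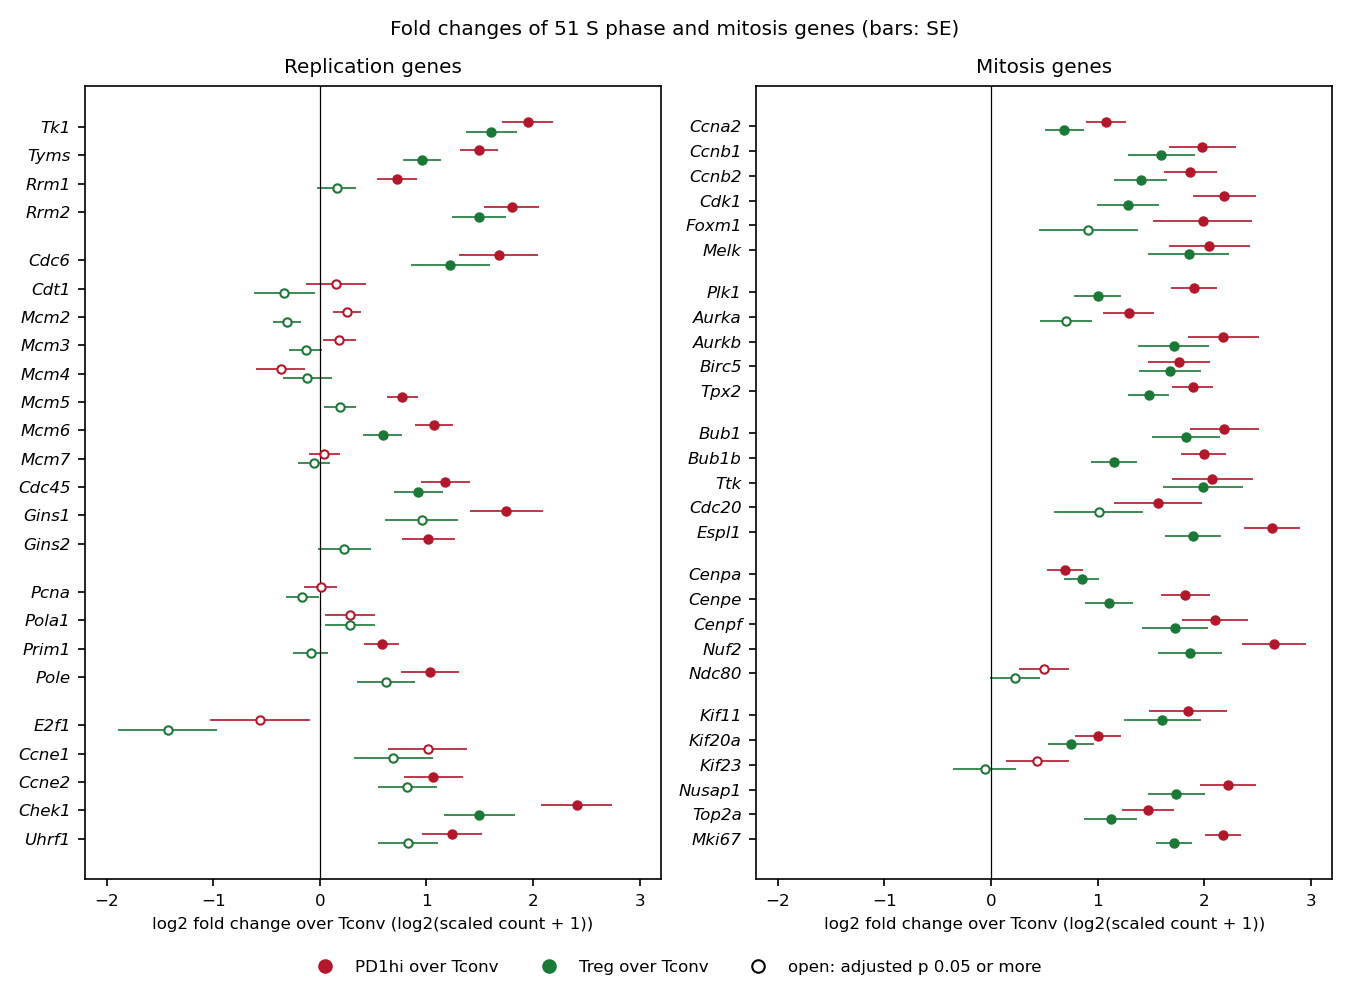
Log2 fold change over Tconv (x axis, log2(scaled count + 1), bars are SE) of each of the 51 genes (y axis, grouped by role), in PD1hi cells (red) and Treg (green), with open symbols where the adjusted p was 0.05 or more. The mitosis genes lie to the right of 0 except Kif23 in Treg, and 4 of the 6 Mcm genes, Pcna and Cdt1 lie close to 0 in both.

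The genes that supply DNA precursors are described first. All 4 rose in PD1hi cells against Tconv and 3 rose in Treg. Tk1 (ENSMUSG00000025574), the thymidine kinase of the salvage pathway, had 519.6, 401 and 589 scaled counts in PD1hi cells, 432, 362 and 385 in Treg and 95.9, 169.5 and 129 in Tconv. Every PD1hi and Treg value was above the highest Tconv value, and the log2 fold changes were 1.95 ± 0.24 in PD1hi (adjusted p = 7.91e-05) and 1.61 ± 0.24 in Treg (adjusted p = 0.00065), both against Tconv. Rrm2, the S phase subunit of ribonucleotide reductase, changed by 1.8 ± 0.26 in PD1hi and 1.49 ± 0.26 in Treg. Tyms, thymidylate synthase, changed by 1.49 ± 0.18 in PD1hi and 0.96 ± 0.18 in Treg; a processed pseudogene named Tyms-ps could share its reads. Rrm1 (ENSMUSG00000030978), the large subunit of ribonucleotide reductase, had 4019, 3464 and 2446 scaled counts in PD1hi cells, 2269.8, 1976 and 2337 in Treg and 2285, 1725 and 1910.3 in Tconv. Its PD1hi values were all above its Tconv values (0.73 ± 0.18, adjusted p = 0.0117), and its Treg values overlapped those of Tconv (0.16 ± 0.18, adjusted p = 0.679).

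Among the 11 genes of origin licensing and the replicative helicase, 6 rose in PD1hi cells and 3 in Treg, both against Tconv. The Mcm2 to Mcm7 proteins form the ring that unwinds DNA, and only 2 of their 6 genes rose in PD1hi cells. Mcm6 (ENSMUSG00000026355), a ring subunit, had 6002, 6814 and 4208 scaled counts in PD1hi cells, 3724, 4614 and 3693 in Treg and 2849.5, 2779.6 and 2347 in Tconv. Both PD1hi and Treg values lay above Tconv, overlapping each other, and Mcm6 rose by 1.07 ± 0.18 in PD1hi (adjusted p = 0.000861) and by 0.59 ± 0.18 in Treg (adjusted p = 0.0478). The Treg call of Mcm6 was lost whichever 1 Treg or Tconv value, or PD1hi of experiment 3, was left out (adjusted p = 0.0556 to 0.194). Mcm5 (ENSMUSG00000005410) had 2230.1, 2221 and 1724 scaled counts in PD1hi cells, 1450.0, 1224 and 1429.5 in Treg and 1309, 1113 and 1168 in Tconv. Only the PD1hi values stood apart, with Mcm5 at 0.78 ± 0.15 in PD1hi (adjusted p = 0.00212) and 0.19 ± 0.15 in Treg (adjusted p = 0.495).

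The other 4 ring subunits did not pass the test against Tconv in either population. Mcm7 (ENSMUSG00000029730) had 2119.5, 1963 and 1495 scaled counts in PD1hi cells, 1794, 1592 and 1781 in Treg and 1822, 1715 and 1817 in Tconv. These ranges overlapped, and the log2 differences were 0.04 ± 0.15 in PD1hi and -0.05 ± 0.15 in Treg. Mcm3 (ENSMUSG00000041859) had 2759, 2633 and 2124 scaled counts in PD1hi cells, 2275, 1649 and 2132 in Treg and 2263, 2129 and 2181.5 in Tconv. Mcm3 gave 0.18 ± 0.15 in PD1hi and -0.13 ± 0.15 in Treg, again with overlap. Mcm4 (ENSMUSG00000022673) had 4188, 4463 and 2204 scaled counts in PD1hi cells, 3872, 3963 and 4528 in Treg and 4554, 3903 and 4966 in Tconv. The PD1hi value of experiment 6 was the lowest of the 9 for Mcm4, whose log2 difference was -0.37 ± 0.23 in PD1hi (adjusted p = 0.277) and -0.12 ± 0.23 in Treg (adjusted p = 0.825). Mcm2 (ENSMUSG00000002870) had 1916, 2075 and 1709 scaled counts in PD1hi cells, 1267, 1353 and 1229.8 in Treg and 1584, 1708 and 1477 in Tconv. The 3 Treg values of Mcm2 were below all others, and the differences from Tconv were 0.26 ± 0.13 in PD1hi (adjusted p = 0.184) and -0.31 ± 0.13 in Treg (adjusted p = 0.164). The call of Mcm2 in PD1hi against Tconv was gained under equal totals (0.40, adjusted p = 0.0342), and with 13 libraries as separate samples Mcm2 fell in Treg (-0.33, adjusted p = 0.0394). Exons of Ap4m1 on the other strand cover 7.25% of the exons of Mcm7, and the sources used here do not say whether the counting used strand.

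**Figure D2:**
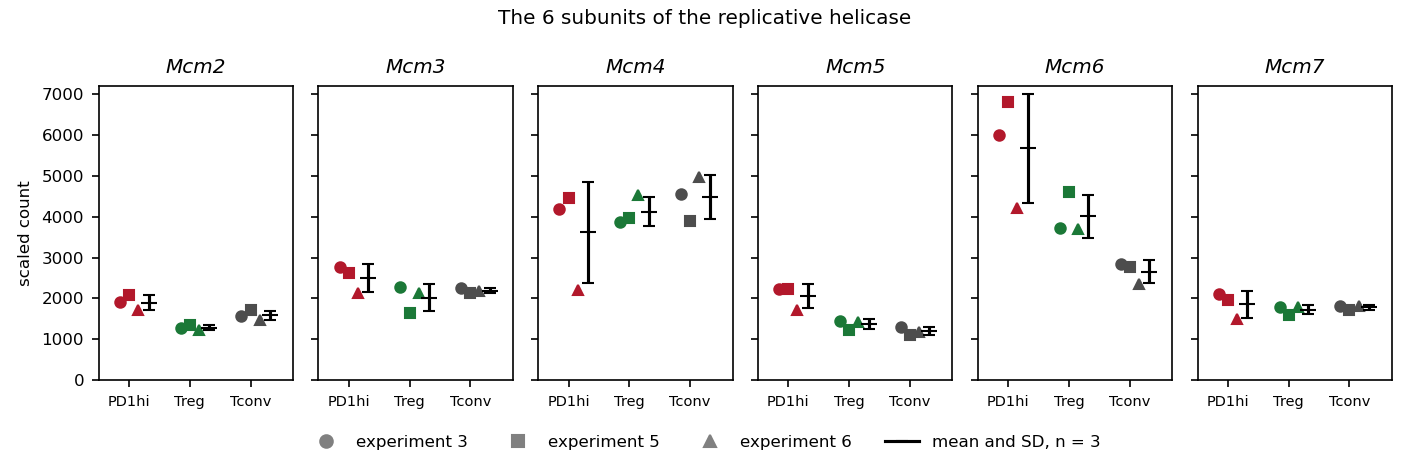
Scaled counts (y axis, from 0) of the 6 ring subunits in PD1hi cells, Treg and Tconv (x axis), with 1 symbol per experiment and bars for mean and SD (n = 3). Mcm6 has PD1hi and Treg above Tconv, Mcm5 has PD1hi above the others, and Mcm4 has a low PD1hi value of 2204 in experiment 6.

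Of the 5 loading and activation factors of the helicase, 4 rose in PD1hi cells. Cdc6 (ENSMUSG00000017499), which loads the ring onto origins, had 451, 446 and 154 scaled counts in PD1hi cells, 296, 184 and 221 in Treg and 97, 90 and 106 in Tconv. All PD1hi and Treg values exceeded the Tconv values, and Cdc6 rose by 1.68 ± 0.37 in PD1hi (adjusted p = 0.00523) and by 1.22 ± 0.37 in Treg (adjusted p = 0.0465), a Treg call that was lost whichever 1 Treg or Tconv value was left out (adjusted p = 0.0669 to 0.162). Gins1 (ENSMUSG00000027454), a subunit of the GINS complex that activates the helicase, had 116, 94 and 140.2 scaled counts in PD1hi cells, 86.4, 71.5 and 46.6 in Treg and 32, 26.2 and 45.2 in Tconv. It had the largest fold of this group in PD1hi (1.75 ± 0.34, adjusted p = 0.00238), and its Treg values also lay above Tconv without passing the test (0.96 ± 0.34, adjusted p = 0.0928). Cdc45, which joins GINS on the helicase, rose by 1.18 ± 0.23 in PD1hi and by 0.93 ± 0.23 in Treg (adjusted p = 0.0173, and 0.0527 to 0.0714 without Treg or Tconv of experiment 3 or 6). Gins2 rose by 1.02 ± 0.25 in PD1hi (adjusted p = 0.00964, and 0.0506 without Tconv of experiment 6), but exons of Gse1 on the other strand cover 67.3% of its exons, so its reads are uncertain. Cdt1 (ENSMUSG00000006585), the partner of Cdc6 in loading, had 341, 495 and 466.4 scaled counts in PD1hi cells, 269, 437 and 242 in Treg and 399.6, 523 and 274 in Tconv. Cdt1 varied as much among experiments as among populations, with 0.15 ± 0.28 in PD1hi (adjusted p = 0.742) and -0.33 ± 0.28 in Treg (adjusted p = 0.542).

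Promoters of 4 of these genes are printed because all carry E2F motifs while their calls differ: Cdc6, Mcm5 and Mcm6 rose in PD1hi cells and Mcm3 did not pass the test. The sequences are from RefSeq (GRCm38.p6) and run from 160 bases before to 30 after the start of the gene, 5′ to 3′ on the strand of the gene. Capitals mark E2F motifs (TTTCCCGC, TTTCGCGC, TTTGCCGC or TTTGGCGC) and the CCAAT box, each on either strand.
Cdc6, chr11:98907991-98908180, plus strand: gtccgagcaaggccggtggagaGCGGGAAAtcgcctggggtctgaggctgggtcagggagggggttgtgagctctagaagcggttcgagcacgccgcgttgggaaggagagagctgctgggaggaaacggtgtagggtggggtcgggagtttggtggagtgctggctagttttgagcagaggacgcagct
Mcm5, chr8:75109349-75109538, plus strand: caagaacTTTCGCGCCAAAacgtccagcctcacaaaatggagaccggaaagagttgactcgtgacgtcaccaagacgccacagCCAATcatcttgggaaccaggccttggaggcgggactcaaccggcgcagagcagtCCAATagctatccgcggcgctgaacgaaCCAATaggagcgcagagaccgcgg
Mcm6, chr1:128359676-128359865, minus strand: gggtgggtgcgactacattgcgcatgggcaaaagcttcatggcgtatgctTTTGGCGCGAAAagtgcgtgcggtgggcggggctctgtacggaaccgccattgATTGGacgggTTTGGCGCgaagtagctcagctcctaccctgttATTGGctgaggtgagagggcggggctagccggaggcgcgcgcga
Mcm3, chr1:20820283-20820472, minus strand: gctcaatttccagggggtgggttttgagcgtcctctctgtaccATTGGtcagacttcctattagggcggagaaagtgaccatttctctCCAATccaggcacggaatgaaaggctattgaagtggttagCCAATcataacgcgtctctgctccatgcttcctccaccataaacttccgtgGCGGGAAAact
The run of 12 capitals in Mcm5 and in Mcm6 is a pair of E2F motifs on opposite strands that share bases. Cdc6 holds 1 E2F motif, 138 bases before its start, and no CCAAT box in this window. The E2F motif of Mcm3 lies 19 bases after the start, and another, outside the printed window, lies 38 bases after it.

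Polymerase genes and the sliding clamp split evenly, with 2 of 4 higher in PD1hi cells and 0 in Treg. Pole (ENSMUSG00000007080), the catalytic subunit of the leading strand polymerase, had 394, 382 and 296 scaled counts in PD1hi cells, 244, 196 and 392 in Treg and 212, 168 and 143 in Tconv. The PD1hi values lay above Tconv (1.04 ± 0.27, adjusted p = 0.0135, and 0.0634 without Tconv of experiment 6), and the Treg values spread widely (0.62 ± 0.27, adjusted p = 0.173). Prim1 (ENSMUSG00000025395), the primase that starts each DNA strand, had 679.5, 661 and 527 scaled counts in PD1hi cells, 398, 369 and 403 in Treg and 419.9, 395 and 426 in Tconv. All 3 PD1hi values lay above the rest, and Prim1 rose by 0.58 ± 0.16 in PD1hi against Tconv (adjusted p = 0.0196) and stood at -0.09 ± 0.16 in Treg (adjusted p = 0.816). The first p lay between 0.0553 and 0.0665 when single PD1hi or Tconv values other than the PD1hi value of experiment 6 were left out. Pcna (ENSMUSG00000027342), the clamp that holds polymerases on DNA, had 2215, 1861 and 1699 scaled counts in PD1hi cells, 2033, 1526 and 1581 in Treg and 2059.9, 1743 and 1918 in Tconv. The ranges overlapped, with differences of 0.01 ± 0.16 in PD1hi (adjusted p = 0.979) and -0.16 ± 0.16 in Treg (adjusted p = 0.597); Pcna-ps1 and Pcna-ps2, processed pseudogenes, could share its reads. Pola1 (ENSMUSG00000006678), the polymerase that extends primers, had 459, 578 and 324 scaled counts in PD1hi cells, 379.6, 448 and 501 in Treg and 424, 297 and 376 in Tconv. Pola1 did not pass the test in PD1hi (0.29 ± 0.23, adjusted p = 0.414) or Treg (0.28 ± 0.23, adjusted p = 0.527).

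Of the 5 genes of S phase entry and its checkpoint, 3 rose in PD1hi cells and 1 in Treg. Chek1 (ENSMUSG00000032113), the checkpoint kinase of S phase, had 188, 146 and 112 scaled counts in PD1hi cells, 97, 87.5 and 53.3 in Treg and 24.5, 23.5 and 32.5 in Tconv. Every PD1hi value exceeded every Treg value and every Treg value exceeded every Tconv value, and Chek1 rose by 2.41 ± 0.33 in PD1hi (adjusted p = 0.000206) and by 1.5 ± 0.33 in Treg (adjusted p = 0.00925). E2f1 (ENSMUSG00000027490), a transcription factor of S phase genes, had 67.6, 56.6 and 17.4 scaled counts in PD1hi cells, 24, 21.6 and 20.2 in Treg and 66.1, 58.1 and 58 in Tconv. The 3 Treg values were all below Tconv, and the PD1hi value of experiment 6 lay below them while the other PD1hi values lay just above and just below the Tconv range. E2f1 gave -1.43 ± 0.47 in Treg (adjusted p = 0.0654) and -0.56 ± 0.47 in PD1hi (adjusted p = 0.424). In Treg it fell past the test without the PD1hi value of experiment 6, at adjusted p = 0.00519 with the same fold.

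Of the E cyclins, which drive entry into S phase with Cdk2, Ccne2 rose in PD1hi (1.07 ± 0.28, adjusted p = 0.013, and 0.0521 without PD1hi of experiment 3) and was at 0.82 ± 0.28 in Treg (adjusted p = 0.0739, and 0.0361 with experiment as a replicate block). Exons of Ints8 on the other strand cover 17.4% of the exons of Ccne2. Ccne1 (ENSMUSG00000002068), the other E cyclin, had 139, 153 and 82.6 scaled counts in PD1hi cells, 77.9, 136 and 83.8 in Treg and 40.5, 88.9 and 57.6 in Tconv. Its PD1hi and Tconv ranges overlapped, and the adjusted p was 0.0651 for a log2 difference of 1.01 ± 0.37, or 0.0298 with the replicate block. Uhrf1, which keeps DNA methylation through replication, rose in PD1hi (1.24 ± 0.28, adjusted p = 0.00581) and was at 0.83 ± 0.28 in Treg (adjusted p = 0.0753).

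The replication genes not past the test in PD1hi cells against Tconv had, by their median, a higher level in Tconv than those that rose. Among them were Ccne1, at 1.01 ± 0.37, and Mcm2, whose PD1hi values all lay above its Tconv values. Per kb of exon, the 9 genes not past the test had a median of 229 scaled counts per kb in Tconv, with a range of 19.2 to 1247, and the 15 that rose had a median of 71.6, with a range of 5.79 to 569.8. The 6 Mcm genes ran from 229 to 1247 scaled counts per kb in Tconv. In PD1hi cells the medians per kb were 273 for the 9 and 161 for the 15. The 25 mitosis genes that rose had a median of 35.1 scaled counts per kb in Tconv and 113 in PD1hi cells. These per kb values describe levels, carry no test, and share the reads that gave the calls.

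All 6 cyclin, Cdk1 and G2/M regulator genes rose in PD1hi cells and 5 rose in Treg, both against Tconv. Cdk1 (ENSMUSG00000019942), the kinase that drives entry into mitosis, had 537, 457 and 319 scaled counts in PD1hi cells, 315, 209 and 180.3 in Treg and 103, 113 and 68.4 in Tconv. The 3 populations did not overlap, and Cdk1 rose by 2.19 ± 0.29 in PD1hi (adjusted p = 0.000158) and by 1.29 ± 0.29 in Treg (adjusted p = 0.0104, and 0.0519 without Tconv of experiment 6). The B cyclins, partners of Cdk1, moved with it: Ccnb1 rose by 1.98 ± 0.31 in PD1hi and 1.6 ± 0.31 in Treg, and Ccnb2 by 1.87 ± 0.25 in PD1hi and 1.41 ± 0.25 in Treg. Processed pseudogenes named Ccnb1-ps and Ccnb2-ps could share their reads. Ccna2 (ENSMUSG00000027715), the cyclin of S phase and early mitosis, had 513, 536 and 433 scaled counts in PD1hi cells, 383, 436 and 316 in Treg and 244, 218 and 236 in Tconv. Its fold was the smallest of this group in PD1hi (1.08 ± 0.19, adjusted p = 0.000984) and in Treg (0.69 ± 0.19, adjusted p = 0.0261), where the call was lost when Treg of experiment 3 or 5 or any 1 Tconv value was left out (adjusted p = 0.0649 to 0.112). Foxm1 (ENSMUSG00000001517), a transcription factor of G2 and mitosis genes, had 128, 107 and 204 scaled counts in PD1hi cells, 99.9, 38.6 and 76.5 in Treg and 60.7, 19.7 and 35.2 in Tconv. Foxm1 rose in PD1hi (1.99 ± 0.46, adjusted p = 0.00729) and overlapped Tconv in Treg (0.91 ± 0.46, adjusted p = 0.256). Melk, a kinase of dividing cells, rose by 2.05 ± 0.38 in PD1hi and by 1.86 ± 0.38 in Treg.

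Promoters of 5 mitosis genes are shown for comparison with those of the replication genes: Cdk1, Ccnb2, Bub1 and Espl1 rose in both PD1hi cells and Treg, and Kif23 passed the test in neither. They are RefSeq sequences of the same window and build, with capitals for CHR elements, CCAAT boxes and E2F motifs on either strand. A CHR element reads TTTGAA, and its variant, as in Bub1, reads TTCGAA.
Cdk1, chr10:69352883-69353072, minus strand: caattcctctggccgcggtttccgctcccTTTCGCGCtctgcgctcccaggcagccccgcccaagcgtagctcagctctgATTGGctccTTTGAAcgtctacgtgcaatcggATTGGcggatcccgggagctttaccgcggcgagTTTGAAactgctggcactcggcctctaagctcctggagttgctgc
Ccnb2, chr9:70421525-70421714, minus strand: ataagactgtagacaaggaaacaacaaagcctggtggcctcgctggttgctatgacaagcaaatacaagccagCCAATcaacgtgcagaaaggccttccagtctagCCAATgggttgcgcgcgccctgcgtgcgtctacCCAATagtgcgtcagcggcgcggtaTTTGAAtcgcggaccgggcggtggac
Bub1, chr2:127831830-127832019, minus strand: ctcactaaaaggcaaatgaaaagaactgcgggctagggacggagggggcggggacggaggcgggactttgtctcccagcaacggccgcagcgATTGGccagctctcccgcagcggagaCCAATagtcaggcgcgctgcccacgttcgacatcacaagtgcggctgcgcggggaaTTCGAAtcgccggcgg
Espl1, chr15:102296133-102296322, plus strand: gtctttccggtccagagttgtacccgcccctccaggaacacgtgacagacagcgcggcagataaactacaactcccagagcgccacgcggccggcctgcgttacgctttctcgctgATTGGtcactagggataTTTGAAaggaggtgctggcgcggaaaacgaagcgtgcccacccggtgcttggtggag
Kif23, chr9:61946770-61946959, minus strand: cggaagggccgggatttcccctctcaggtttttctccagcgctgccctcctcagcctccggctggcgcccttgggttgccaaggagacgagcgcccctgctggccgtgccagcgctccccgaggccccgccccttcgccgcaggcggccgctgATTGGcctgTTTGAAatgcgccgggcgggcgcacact
All 5 hold a CHR element and a CCAAT box, including Kif23, and Cdk1 also holds an E2F motif 131 bases before its start. Ccnb2 has 3 CCAAT boxes in this window, and Cdk1 and Bub1 have 2 each. These 5 are examples and do not stand for all mitosis genes. From 250 bases before to 50 after the start, 15 of 22 mitosis promoters held both a CHR element and a CCAAT box. Birc5, Melk, Nuf2 and Nusap1, which also rose in both PD1hi cells and Treg, held 0 motifs of the 3 kinds there.

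RefSeq promoters from 250 bases before to 50 after the start were matched for 41 of the 51 genes, of which 2 had more than 1. The others were Mcm4, Gins1, Gins2, Pole, Ccne2, Ccna2, Foxm1, Aurkb, Tpx2 and Kif20a. E2F motifs stood in 8 of 19 replication promoters (42.1%) and in 1 of 22 mitosis promoters (4.55%), the one of Cdk1, against 4.71% of the tested genes and 2.6% of all 27025 genes with a promoter. CHR elements stood in 3 of 19 replication promoters (15.8%) and 16 of 22 mitosis promoters (72.7%), against 16.8% of tested and 21.7% of all genes. CCAAT boxes stood in 12 of 19 (63.2%) and 17 of 22 (77.3%), against 43.3% of tested and 41.1% of all genes. Among replication genes 4 of 8 with an E2F motif rose in PD1hi cells against Tconv, and 7 of 11 without one. Among mitosis genes 14 of 16 with a CHR element rose, and 6 of 6 without one. Matches are letters in a window, not sites of binding, and the shares carry no test.

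**Figure D3:**
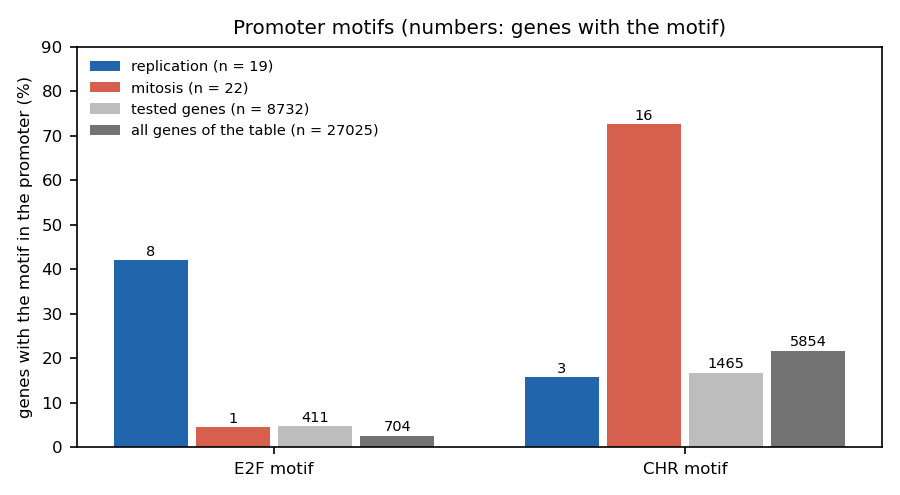
Percent of genes (y axis, from 0) whose promoter, 250 bases before to 50 after the start, holds an E2F motif or a CHR element, for replication genes (n = 19), mitosis genes (n = 22), tested genes (n = 8732) and all genes of the promoter table (n = 27025). E2F motifs are most frequent in the replication genes at 42.1% and CHR elements in the mitosis genes at 72.7%.

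All 5 genes of the Polo and Aurora kinases and their partners rose in PD1hi cells, and 4 in Treg. Aurkb (ENSMUSG00000020897), the kinase of the chromosomal passenger complex, had 454, 425 and 357 scaled counts in PD1hi cells, 383, 206 and 330.1 in Treg and 124, 110.4 and 52.7 in Tconv. All PD1hi and Treg values lay above Tconv, and Aurkb rose by 2.18 ± 0.33 in PD1hi (adjusted p = 0.000407) and by 1.71 ± 0.33 in Treg (adjusted p = 0.00382). Aurka (ENSMUSG00000027496), the spindle pole kinase, had 348, 271 and 278 scaled counts in PD1hi cells, 256, 166 and 182 in Treg and 115, 105 and 146 in Tconv. Aurka did not overlap Tconv in either population, rising by 1.29 ± 0.24 in PD1hi (adjusted p = 0.00168) without passing the test in Treg (0.70 ± 0.24, adjusted p = 0.0765). Plk1 (ENSMUSG00000030867), a kinase needed from mitotic entry to cytokinesis, had 378, 439.5 and 395 scaled counts in PD1hi cells, 249.5, 171 and 233 in Treg and 126, 101 and 96 in Tconv. The populations were fully ordered, and Plk1 rose by 1.91 ± 0.22 in PD1hi (adjusted p = 4.97e-05) and by 1.0 ± 0.22 in Treg (adjusted p = 0.00819). Birc5, the survivin subunit of the passenger complex, rose by 1.76 ± 0.29 in PD1hi and 1.68 ± 0.29 in Treg. Tpx2, an activator of Aurora A, rose by 1.89 ± 0.20 in PD1hi and 1.48 ± 0.20 in Treg.

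The spindle checkpoint and anaphase genes rose in 5 of 5 cases in PD1hi cells and in 4 of 5 in Treg. Espl1 (ENSMUSG00000058290), separase, the protease that parts sister chromatids, had 192, 267 and 217 scaled counts in PD1hi cells, 141, 120.4 and 139.8 in Treg and 34.1, 44.4 and 28.5 in Tconv. Without overlap among the 3 populations, Espl1 rose by 2.64 ± 0.26 in PD1hi (adjusted p = 1.74e-05) and by 1.9 ± 0.26 in Treg (adjusted p = 0.000424). Bub1b (ENSMUSG00000040084), a checkpoint component that holds back anaphase, had 698, 659 and 569 scaled counts in PD1hi cells, 455, 265 and 374 in Treg and 162, 149 and 168 in Tconv. Bub1b was likewise ordered without overlap and rose by 2.0 ± 0.21 in PD1hi and 1.15 ± 0.21 in Treg. The checkpoint kinases Bub1 and Ttk rose by 2.19 ± 0.32 and 2.08 ± 0.38 in PD1hi and by 1.83 ± 0.32 and 1.99 ± 0.38 in Treg. Cdc20 (ENSMUSG00000006398), the activator of the anaphase-promoting complex, had 171, 334 and 127 scaled counts in PD1hi cells, 132, 198 and 87 in Treg and 67.1, 90.7 and 44.4 in Tconv. Cdc20 was highest in experiment 5 in each population, and its rise was 1.57 ± 0.41 in PD1hi (adjusted p = 0.0145, 0.0628 without PD1hi of experiment 5 and 0.0683 without Tconv of experiment 6). In Treg it stood at 1.01 ± 0.41 (adjusted p = 0.146, and 0.0135 with the replicate block).

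At the centromere and kinetochore, where chromosomes meet the spindle, 4 of 5 genes rose in each population. Nuf2 (ENSMUSG00000026683), a subunit of the Ndc80 complex that binds microtubules, had 373, 314 and 199 scaled counts in PD1hi cells, 193, 133 and 175 in Treg and 58.6, 40.2 and 37.2 in Tconv. Nuf2 had the largest fold of the 51 genes in PD1hi (2.66 ± 0.30, adjusted p = 4.44e-05) and rose by 1.87 ± 0.30 in Treg (adjusted p = 0.00119). Ndc80 (ENSMUSG00000024056), the partner of Nuf2 in that complex, had 419, 390.0 and 300.1 scaled counts in PD1hi cells, 372, 225 and 332 in Treg and 289, 219 and 274 in Tconv. Although its 3 PD1hi values lay above the 3 Tconv values, the difference was 0.50 ± 0.23 (adjusted p = 0.146), and it was 0.22 ± 0.23 in Treg (adjusted p = 0.635). Per kb of exon Ndc80 and Kif23, the 2 mitosis genes not past the test in PD1hi, were near the mitosis median in Tconv, at 40.2 and 40.6 scaled counts per kb. Cenpe, a kinetochore motor, rose by 1.82 ± 0.23 in PD1hi and 1.11 ± 0.23 in Treg, and Cenpf, which builds the outer kinetochore, by 2.1 ± 0.31 in PD1hi and 1.73 ± 0.31 in Treg. Cenpa (ENSMUSG00000029177), the centromeric histone H3 variant, had 605, 646 and 724 scaled counts in PD1hi cells, 775, 721 and 699.9 in Treg and 360.2, 485 and 380.4 in Tconv. Cenpa was higher than Tconv in both (0.70 ± 0.17 in PD1hi and 0.85 ± 0.17 in Treg), with the Treg mean above the PD1hi mean.

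Among mitotic motors and chromosome proteins, 5 of 6 genes rose in each population. Nusap1 (ENSMUSG00000027306), which bundles spindle microtubules, had 1256, 880.0 and 637 scaled counts in PD1hi cells, 785, 573 and 576 in Treg and 251, 162 and 168 in Tconv. The populations were ordered except that the PD1hi value of experiment 6 fell within Treg, and Nusap1 rose by 2.22 ± 0.26 in PD1hi (adjusted p = 6.35e-05) and by 1.74 ± 0.26 in Treg (adjusted p = 0.000754). Mki67 (ENSMUSG00000031004), the Ki-67 protein that coats mitotic chromosomes, had 1864, 2024 and 2202 scaled counts in PD1hi cells, 1668, 1258 and 1526 in Treg and 476, 511 and 367 in Tconv. All 3 populations were apart for Mki67, with 2.18 ± 0.17 in PD1hi (adjusted p = 2.71e-06) and 1.72 ± 0.17 in Treg (adjusted p = 2.86e-05). Top2a, the topoisomerase that untangles sister chromatids, rose by 1.47 ± 0.25 in PD1hi and 1.12 ± 0.25 in Treg, and Kif11, the motor that separates spindle poles, by 1.85 ± 0.36 in PD1hi and 1.61 ± 0.36 in Treg. Kif20a, a motor of the central spindle, rose by 1.0 ± 0.22 in PD1hi and 0.75 ± 0.22 in Treg (adjusted p = 0.0381, 0.0553 with the replicate block and 0.0764 to 0.134 with any 1 Treg or Tconv value left out), and exons of Cdc23 on the other strand cover 29.3% of its exons. Kif23 (ENSMUSG00000032254), a central spindle motor of cytokinesis, had 574, 532 and 258 scaled counts in PD1hi cells, 328, 248 and 345 in Treg and 371, 256 and 335 in Tconv. The PD1hi value of experiment 6 was among the lowest of the 9, and the differences were 0.43 ± 0.29 in PD1hi (adjusted p = 0.318, and 0.0165 without that value) and -0.06 ± 0.29 in Treg (adjusted p = 0.939).

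The balance of both classes set Tconv apart from PD1hi cells and Treg alike. The mean log2(scaled count + 1) of the 27 mitosis genes was 9.04, 8.90 and 8.50 in PD1hi cells, 8.58, 8.12 and 8.32 in Treg and 7.30, 7.0 and 6.84 in Tconv. For the 24 replication genes it was 9.63, 9.57 and 9.13 in PD1hi cells, 9.11, 8.95 and 8.98 in Treg and 8.61, 8.58 and 8.55 in Tconv. The replication mean minus the mitosis mean was 0.63 ± 0.04 in PD1hi, 0.68 ± 0.16 in Treg and 1.53 ± 0.20 in Tconv (SD, n = 3 each). The 3 Tconv differences, 1.31, 1.57 and 1.71, lay above all PD1hi and Treg differences, which ran from 0.53 to 0.84. Between populations the difference changed by -0.90 in PD1hi against Tconv, by -0.86 in Treg against Tconv and by -0.04 in PD1hi against Treg. The last was 0.04 without the Treg value of experiment 5, and no test is given because the genes were chosen with results known.

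**Figure D4:**
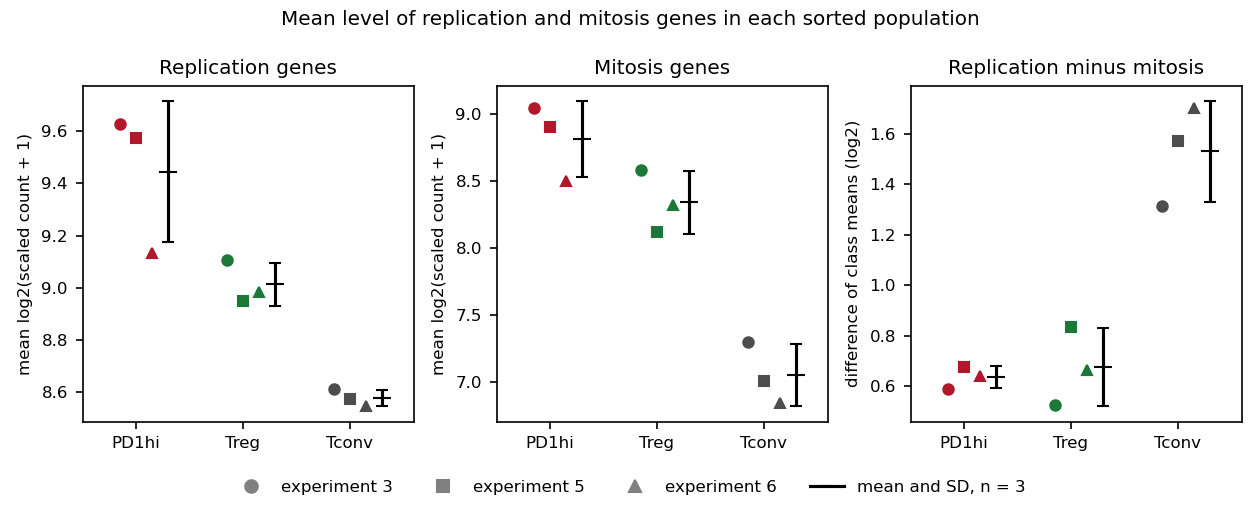
Mean log2(scaled count + 1) of the 24 replication genes (left), of the 27 mitosis genes (middle) and the first minus the second (right), on the y axes, in PD1hi cells, Treg and Tconv (x axes), with 1 symbol per experiment and bars for mean and SD (n = 3). The right panel shows Tconv at 1.31 to 1.71 and the other populations between 0.53 and 0.84.

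The comparison of PD1hi cells with Treg gave the fewest calls. The 5 genes that rose in PD1hi against Treg were Mcm2, Mcm5, Prim1, Plk1 and Bub1b, a share close to the 8.16% called higher over all tested genes. Of the 51 log2 differences 49 were above 0, against 7000 of all 14177 tested genes. The medians were 0.43 for replication and 0.46 for mitosis genes, against -0.01 over all tested genes. The folds of the 5 were 0.56 ± 0.13 for Mcm2 (adjusted p = 0.0108), 0.58 ± 0.15 for Mcm5 (adjusted p = 0.018), 0.67 ± 0.16 for Prim1 (adjusted p = 0.0141), 0.90 ± 0.22 for Plk1 (adjusted p = 0.0134) and 0.84 ± 0.21 for Bub1b (adjusted p = 0.0176). The largest difference that did not pass the test was that of Foxm1 (1.07 ± 0.46, adjusted p = 0.155). The negative ones were Mcm4 (-0.25 ± 0.23, adjusted p = 0.535) and Cenpa (-0.16 ± 0.17, adjusted p = 0.605). Of the 5 calls, that of Mcm2 held whichever 1 value was left out, and the others were lost without PD1hi of experiment 5 (adjusted p = 0.0544 to 0.0694), with further losses without PD1hi of experiment 3 or Treg of experiment 5. Bub1b was also lost without the second Treg library of experiment 3 (adjusted p = 0.0831). With experiment as a replicate block 9 genes rose, 5 replication and 4 mitosis genes, the additions being Rrm1, Mcm6, Cdk1 and Cenpe, and under equal totals 10.

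The count rested on single values. Without PD1hi of experiment 6 it was 17 (9 replication, 8 mitosis), without PD1hi of experiment 3 it was 3, without PD1hi of experiment 5 it was 1, and without Treg of experiment 5 it was 2. The shallowest library, PD1hi of experiment 6, was the lowest of the 3 PD1hi values in 39 of the 51 genes (76.5%), against 42.8% of all tested genes. Its median log2 distance from the mean of the other PD1hi values was -0.42 over the 51 genes and -0.03 over all tested genes. Its reads differed from those of PD1hi of experiments 3 and 5 with a chi-square per degree of freedom of 66.2 and 59.5. Those libraries differed from each other by 22.3. It held 2187 genes at 0, against 914 in PD1hi of experiment 3 and 1128 in PD1hi of experiment 5. The cause was not tested. Within experiments, the median log2 ratio of PD1hi to Treg was 0.44 in experiment 3, 0.79 in experiment 5 and 0.19 in experiment 6 for the mitosis genes, with 26, 26 and 18 of 27 above 0. For the replication genes it was 0.51, 0.64 and 0.07, with 23, 24 and 13 of 24 above 0. The matching shares over all tested genes were not counted. Of the Treg pair of experiment 3, the second library was below the first in 35 of the 51 genes (68.6%), against 53.5% of all tested genes. Against Tconv the counts moved less, with 36 to 42 of 51 higher in PD1hi and 23 to 31 higher in Treg when single values were left out, although the 7 replication genes higher in Treg became 4 without Treg of experiment 3 or 6 or without Tconv of experiment 3 or 6.

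**Figure D5:**
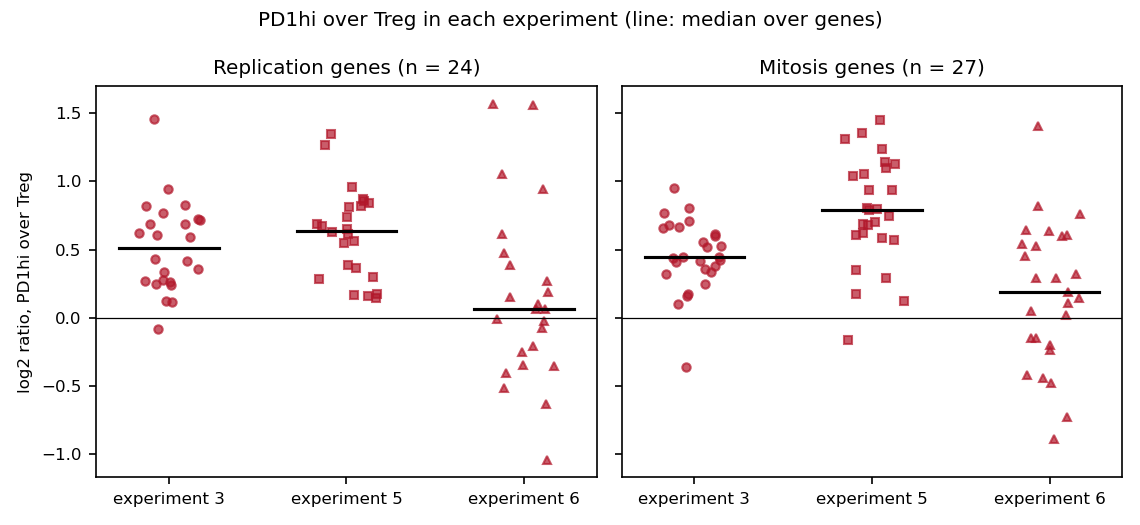
Log2 ratio of PD1hi to Treg (y axis) of each replication gene (left, n = 24) and mitosis gene (right, n = 27) within experiments 3, 5 and 6 (x axis), with a line at the median. Experiments 3 and 5 lie almost wholly above 0, and experiment 6 spreads to both sides with medians of 0.07 and 0.19.

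Further genes of the same pathways, 50 of replication and 66 of mitosis, were counted in the same fits. Over all tested genes 14.2% were called higher and 11.9% lower in PD1hi cells against Tconv. Of the further genes 54 of 65 tested mitosis genes rose and 1 fell, and 15 of 50 replication genes rose and 1 fell. Their medians were 1.6 and 0.41. The largest rises among those past the test were of the kinesins Kif18b (3.19 ± 0.40, 68.9 ± 15.8 against 6.72 ± 2.2 scaled counts) and Kif15 (3.17 ± 0.28, 689 ± 114 against 77.7 ± 25.3 scaled counts). Timeless, of the fork protection complex, fell by 0.85 ± 0.18 (adjusted p = 0.00438) and Smc4, a condensin subunit, fell by 0.45 ± 0.12 (adjusted p = 0.0126). In Treg against Tconv 33 of 65 mitosis genes rose and 0 fell, against 8.73% called higher and 5.66% lower over all tested genes. Of the 50 replication genes 4 rose and 4 fell, close to those shares. Pole2, the accessory subunit of the leading strand polymerase, fell by 2.39 ± 0.41 in Treg (56.3 ± 31.6 against 259 ± 5.36 scaled counts, adjusted p = 0.00175). In PD1hi cells against Treg 8.16% of all tested genes were called higher and 8.39% lower. There 4 of 65 mitosis genes rose, a share close to that, and 1, Smc4, fell, while 8 of 50 replication genes rose and 1 fell. The largest of these rises was that of Dscc1, a subunit of a clamp loader used in sister chromatid cohesion (1.6 ± 0.47, 82.8 ± 12.9 against 31.6 ± 22.1 scaled counts).

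Markers of other cells moved between the populations as well. The summed scaled count of 11 B cell markers was 36169 to 40673 in PD1hi, 62361 to 70298 in Treg and 20377 to 23190 in Tconv, of which Ighm gave 33832 to 38837 in PD1hi, 61446 to 69344 in Treg and 20081 to 22944 in Tconv. Of the 6 B cell markers tested, 3 were higher and 0 lower in PD1hi than in Tconv, 1 was higher and 2 lower in PD1hi than in Treg, and 2 were higher and 0 lower in Treg than in Tconv (limma, adjusted p under 0.05). Cd22, an inhibitory receptor of B cells, was at 1949, 1488 and 1588 in PD1hi, 222, 225 and 276 in Treg and 228, 183 and 125 in Tconv. Cd79b, a chain of the B cell receptor complex, was at 146, 84.9 and 159 in PD1hi, 706, 642 and 540 in Treg and 60.7, 58.3 and 54.5 in Tconv. PD1hi was the highest for Cd22 and Treg for Cd79b, in each case without overlap with the other populations. Low among the B cell markers, and like Cd22 and Cd79b chosen after its values were seen, Pax5, the transcription factor that maintains B cell identity, was at 7.17, 10.1 and 2.17 in PD1hi, 0, 0 and 1.62 in Treg and 3.2, 0 and 0 in Tconv. Of 8 germinal centre B cell markers 4 were in the table, summing to 4169.8 to 4879 in PD1hi, 2254 to 2399 in Treg and 1589.7 to 1966 in Tconv, mostly Fas and S1pr2, which activated T cells also express. The 7 plasma cell markers in the table summed to 5868 to 9211 in PD1hi, 8199 to 10995 in Treg and 3083 to 3706 in Tconv. Of these, Igj gave 2353 to 4954 in PD1hi, 2867 to 5540 in Treg and 1262 to 2042 in Tconv. Prdm1 gave 399 to 859 in PD1hi, 2155 to 2876 in Treg and 559 to 605 in Tconv, and Irf4 gave 1279 to 1918, 1253 to 1438 and 371 to 462. Xbp1 gave 1090 to 1520 in PD1hi, 892 to 1523 in Treg and 558 to 790 in Tconv. Sdc1 was at most 70.7 and Tnfrsf17 at most 31.0 in any value. Of the 6 plasma cell markers tested, 3 were higher and 0 lower in PD1hi than in Tconv. In Treg against Tconv 4 were higher and 0 lower, and in PD1hi against Treg 0 were higher and 1 lower (limma, adjusted p under 0.05). The 10 myeloid markers summed to 448 to 644 in PD1hi, 319.8 to 976 in Treg and 395 to 714 in Tconv. The 6 CD8 and NK markers summed to 341 to 576 in PD1hi, 333 to 559.9 in Treg and 1708 to 1865 in Tconv, and the 8 erythroid markers to at most 92.4 in any value. The part of such cells in the cell cycle results was not tested.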

How the data were processed

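Ribosome-depleted total RNA of the 13 libraries was sequenced on Ion Torrent after Trizol extraction, per the labels' protocols. The submitters' processing notes name Picard, HTSeq 0.5.4 and limma and the builds hg19, GRCh37 and mm9, with no role. Neither the aligner nor the strand setting is given in the sources used here. The deposited values are 1 table of 18649 genes with unit signal, scaled counts per the labels: after subtracting 1, which was done here, dividing each value by 1 factor per library left whole reads (within 0.001 reads). Libraries of one experiment and population were averaged to 9 values. A mean scaled count of at least 10 admitted a gene to the test. The test was limma 3.58.1 under R 4.3.3 with a mean trend, a pseudocount of 1 and 1 fit for the 3 populations, 2-sided. The method was run on simulated data with independent libraries of equal dispersion. Those data held no effect of an experiment or a pair and no library that stands apart, so they cannot show how the calls fare under such effects. Fold changes on this scale understate the change of low genes.

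The titles name the experiment, so experiment pairs the populations; deviations from the population means correlated by -0.07 to 0.298 within an experiment, and the blocked fit is an alternative. The members, the lists, the tests and the rule for named genes (in each role the largest and the smallest change in PD1hi against Tconv, and members whose call differed from their role) were chosen with earlier results of these data known. Exon lengths and overlaps come from the GENCODE annotation of GRCm38, promoters from RefSeq GRCm38.p6.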

Additional observations from a re-analysis of the deposited data

Results flagged for a closer look

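Library values were screened gene by gene in Treg and in Tconv, which have 5 libraries each, and a value was picked out where its gap to the nearest other library exceeded 0.71 of the range of the group. Of 102 such groups 7 were picked out, and chance gives about 1 in 20. Each is a single library far from the other 4 of its population.

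In Tconv of experiment 3, Rrm2 was at 859.97 scaled counts, with the others at 557.65 to 619.63. The same library gave Nusap1 at 251.49, with the others at 154.64 to 174.04, and Top2a at 1447.1, with the others between 1140.0 and 1170.9. The second Tconv library of experiment 5 gave Ccne1 at 119.45, with the others at 40.494 to 60.72. In Treg of experiment 5, Ccne2 was at 201.25, with the others at 333.42 to 379.4, and Melk at 152.35, with the others at 302.76 to 352.16. The first Treg library of experiment 3 gave Ccnb1 at 664.69, with the others at 382.13 to 429.23. Without the value of that experiment and population, Rrm2, Nusap1, Top2a, Ccnb1 and Melk kept their calls in PD1hi and in Treg against Tconv. Ccne1 then rose in PD1hi against Tconv (1.30, adjusted p = 0.034 from limma), and Ccne2 then rose in Treg against Tconv (1.1, adjusted p = 0.0196).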

How the results depend on the processing

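The number of the 51 genes higher in PD1hi against Treg, 5, was 8 with a pseudocount of 10, 9 with experiment as a replicate block, 9 with 13 libraries as separate samples and 10 with equal totals, and it ran from 1 to 17 when single values were left out. For replication genes, 3, it was 5 with the block, 7 with 13 libraries, 6 with equal totals and 1 to 9 with single values left out. For mitosis genes, 2, it was 4 with a pseudocount of 10, 4 with the block, 4 with equal totals and 0 to 8 with single values left out. In Treg against Tconv, 13 libraries gave 3151 called genes, against 2039 as reported, and 11 replication genes higher, against 7 (4 to 9 with single values left out). No replication gene was lower there as reported, against 2 with 13 libraries, 1 with only the populations compared and 0 to 1 with single values left out. Replication minus mitosis in PD1hi against Treg, -0.04, was 0.0396 without Treg of experiment 5, and ran from -0.116 to 0.0396 over the values left out. The causes were not tested. The number of genes higher in PD1hi against Tconv, 40, stayed within 36 to 42 over all settings run. With promoters of 100 bases before the start, E2F motifs stood in 4 of 19 replication and 0 of 22 mitosis promoters. The block changed no other call than those named beside the results. The planned count test on the reads recovered from the scaled counts was not run, so the calls under a count model were not tested. A member had 11 reads at the least in a library, which limits low genes such as Ttk and E2f1.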
